A study of Homo sapiens with 12 samples.

Results

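The proteasome genes of NCI-H295R cells, a human adrenocortical carcinoma line that makes steroids and is used as a model of the adrenal cortex, were examined by RNA-seq after treatment with 2 inhibitors of cortisol production. The members were the protein-coding genes of the deposited expression table whose symbols begin with PSM, followed by a letter from A to G and a number. They came to 48 of 60662 genes in the table, of which 19957 are protein-coding. The 20S core particle is covered by 19 of them (PSMA and PSMB) and its regulators and assembly factors by 29 (PSMC, PSMD, PSME, PSMF and PSMG). Confluent cells were kept without serum for 12 h and then received for 24 h the vehicle alone (VEH, 0.1% DMSO), 30 µM CJ28, a compound known here by its code, or 30 µM metyrapone (MET), an inhibitor of the last enzyme of cortisol synthesis. Each group held 4 biological replicates of the same line, 12 samples in all, and no other line or dose was examined.

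The proteasome is the protease that degrades ubiquitin-tagged proteins. Its barrel-shaped core has outer rings of alpha subunits, which form the gate, and inner rings of beta subunits, of which PSMB5, PSMB6 and PSMB7 carry the catalytic sites. Interferon-responsive cells can build in PSMB8, PSMB9 and PSMB10 instead, which gives the immunoproteasome and changes the peptides offered to T cells. A 19S cap binds to the core. It consists of a base, with a ring of ATPases that unfolds substrates, and a lid, which removes ubiquitin. Many proteasome genes are induced together by the transcription factor NFE2L1 when protease activity is short.

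Levels were the authors' TPM values, a share of all transcripts corrected for their length. Differences were estimated by limma on log2(TPM + 0.1) over the 16815 genes with at least 0.5 TPM in at least 4 samples, and a gene was called at a Benjamini-Hochberg adjusted p under 0.05. The filter was passed by 46 members, 17 of the core and all 29 regulators. The remaining members are tissue-restricted. PSMA8, the alpha subunit of the testis proteasome, was listed at 0 to 0.02 TPM, and PSMB11, the beta subunit of thymic epithelium, at 0 to 0.01 TPM. All 9 adrenocortical markers looked at reached 0.5 TPM in at least 1 sample, and 7 had a mean of at least 1 TPM, which no marker of the other types had. The endothelial markers stayed at or under 0.05 TPM, and immune, fibroblast and medullary markers peaked at 0.55, 0.85 and 1.17 TPM. The adrenocortical markers summed to 284.4 to 294.7 TPM in VEH, 117.5 to 124.4 TPM in CJ28 and 282.2 to 297.4 TPM in MET. All 9 were called lower in CJ28 than in VEH, as were 37.1% of all tested genes. The part of their fall in the results below was not tested. CD3E and TH, which define T cells and catecholamine-making cells, were at 0 in every sample. Nuclear protein-coding genes held 24.3% to 24.8% of TPM in VEH, 24.1% to 24.6% in MET and 21.3% to 21.4% in CJ28, so a level as deposited also moves with the other RNA in the library. For this reason 2 further scales were used for CJ28, median-of-ratios scaling and TPM over nuclear protein-coding genes alone. Over every tested gene, the median log2 difference of CJ28 from VEH was -0.13 as deposited, 0.01 after the scaling and 0.09 on the protein-coding scale.

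The promoters of the members with the strongest changes are shown first, because promoters hold the letters that transcription factors read, and members that fell can be set beside members that rose. For each direction of change between CJ28 and VEH, they are the 2 members with the largest change whose window held 1 of 4 short motifs. Each window is the 250 bases before the annotated start (RefSeq, GRCh38.p14), read 5′ to 3′ on the gene's strand, with the motif in capitals. PSMB2 is at chr1:35641527-35641776 (minus strand), PSMA2 at chr7:42932175-42932424 (minus), PSMB8 at chr6:32844680-32844929 (minus) and PSMD5 at chr9:120842923-120843172 (minus).
PSMB2: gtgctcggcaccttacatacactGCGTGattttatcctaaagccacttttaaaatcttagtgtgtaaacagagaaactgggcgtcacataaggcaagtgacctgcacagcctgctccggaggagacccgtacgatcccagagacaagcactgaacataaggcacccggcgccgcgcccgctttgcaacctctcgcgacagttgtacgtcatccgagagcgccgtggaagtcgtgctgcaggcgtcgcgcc
PSMA2: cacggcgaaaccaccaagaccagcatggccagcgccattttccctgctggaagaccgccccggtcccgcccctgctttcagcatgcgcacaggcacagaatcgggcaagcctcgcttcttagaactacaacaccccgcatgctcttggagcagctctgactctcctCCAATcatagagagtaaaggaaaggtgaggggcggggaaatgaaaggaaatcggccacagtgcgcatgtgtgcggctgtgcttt
PSMB8: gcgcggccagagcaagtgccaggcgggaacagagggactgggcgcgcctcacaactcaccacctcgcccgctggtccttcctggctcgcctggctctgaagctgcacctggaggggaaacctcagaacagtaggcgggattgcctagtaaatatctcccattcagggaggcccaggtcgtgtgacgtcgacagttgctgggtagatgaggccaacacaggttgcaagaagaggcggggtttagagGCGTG
PSMD5: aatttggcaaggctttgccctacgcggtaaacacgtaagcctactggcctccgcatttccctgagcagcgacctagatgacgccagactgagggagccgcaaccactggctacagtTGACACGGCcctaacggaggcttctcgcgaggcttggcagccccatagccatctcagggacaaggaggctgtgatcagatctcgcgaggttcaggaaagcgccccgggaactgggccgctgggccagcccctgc

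The capitals mark GCGTG, the core of the element bound by the aryl hydrocarbon receptor, in PSMB2 and PSMB8, where they begin 227 and 5 bases before the start. In PSMA2 they mark CCAAT, the box bound by NF-Y, 84 bases before the start, and in PSMD5 TGACNNNGC, the core of the antioxidant response element read by NFE2L1 and NFE2L2, 134 bases before it. RefSeq windows were found for 42 of the 48 members, and both strands were searched. PSMB8 had 2 windows, and the one not shown held none of the 4 motifs. TGACNNNGC lay before 13 members, or 31.0%, against 13.2% of 27305 genes with a window and 15.9% of the 9994 tested protein-coding genes. CCAAT lay before 19 members, or 45.2%, against 37.0% and 42.7%. GCGTG lay before 16, or 38.1%, against 36.2% and 53.4%. The core of the interferon response element, a GAAA followed after 2 bases by another GAAA, lay before 5, or 11.9%, against 3.71% and 3.34%. Among the 66 matches in the members' windows, 0 pairs of matches to different motifs shared bases. The share with TGACNNNGC was 30.0% among the 30 members with a window that were lower in CJ28, close to that of all members. These are matches of letters and not binding sites.

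In VEH the tested members ranged from 3.12 TPM for PSMB9 to 173 TPM for PSMB4, with a median of 49.4 TPM. Ranked by mean, 32 of the 45 neighbouring pairs overlapped in their samples. The order within those pairs of neighbours could not be told from replicate spread, which says nothing of members further apart. Constitutive beta subunits had a median of 83.9 TPM, alpha subunits 80.7 TPM, base ATPases 66.8 TPM, lid subunits 49.4 TPM, activators 39.2 TPM, base chaperones 20.5 TPM, core chaperones 18.3 TPM and immunosubunits 3.41 TPM. By class median, the genes of the standing complex thus lay above its assembly factors and the inducible subunits. Single genes departed from this, as PSMD13 of the lid, at 14.2 TPM, lay among the assembly factors. The coefficient of variation among 4 replicates had a median over members of 4.25% in VEH, 4.96% in CJ28 and 3.41% in MET. It was highest for PSMB9 in VEH, at 27.6%.

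Most proteasome genes were lower in CJ28, while the inducible subunits and several assembly factors were not. Of the 46 tested members, 35 fell against VEH, 3 rose (PSMB8, PSMD5 and PSMG3) and 8 were not called (PSMB9, PSMB10, PSMC4, PSMD8, PSMD9, PSMF1, PSMG1 and PSMG4). Across all tested genes 37.1% were called lower and 19.9% higher, 57.0% in either direction. The median log2 difference of the members was -0.39, within a range of -0.90 to 0.70. Every CJ28 sample was below every VEH sample for 33 members, a pattern shown by 32.7% of all tested genes. Every CJ28 sample was above every VEH sample for PSMB8 alone among the members, against 17.7% of all genes. In the core, 14 of 17 fell and 1 rose, and among the regulators 21 of 29 fell and 2 rose.

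The fall was smaller on the other scales, and for 8 of the 35 members it was not called there. After median-of-ratios scaling 27 members were lower and 6 higher, against 26.3% and 29.3% of all tested genes. On the protein-coding scale 27 were lower and 8 higher, against 26.3% and 39.2% of 12506 genes. The same 27 members were lower on all 3 scales. PSMB6, PSMC5, PSMD4, PSMD7, PSMD13, PSMD14, PSME3 and PSMG2 were called lower as deposited only. PSMB8, PSMD5 and PSMG3 were higher on all 3 scales, and PSMB9, PSMC4 and PSMD8 joined them after the scaling. The directions given below are those of the deposited TPM unless another scale is named.

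**Figure D1:**
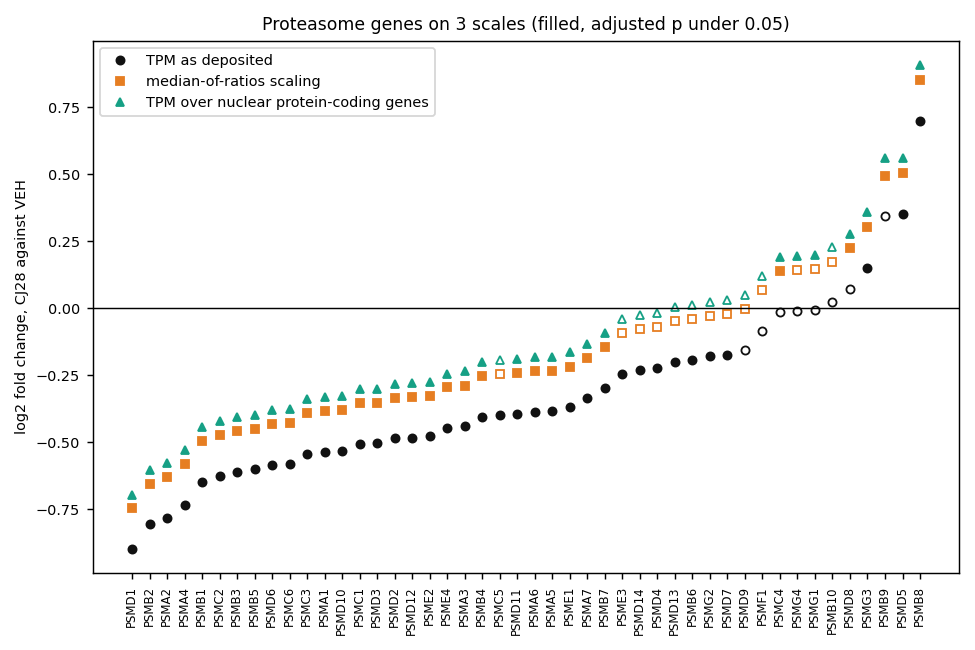
Log2 fold change of CJ28 against VEH for each of the 46 tested members (x axis), as deposited (circles), after median-of-ratios scaling (squares) and on the protein-coding scale (triangles). Filled symbols passed an adjusted p under 0.05. For 27 members the symbol is filled and below 0 on all 3 scales, and PSMB8 is highest on each.

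All members summed to 2543 ± 42.3 TPM in VEH (SD, n = 4), 1933 ± 37.4 TPM in CJ28 and 2551 ± 38.9 TPM in MET. The CJ28 sum was 76.0% of the VEH sum, and the samples of the pair of groups did not overlap. As a share of the TPM of nuclear protein-coding genes, the sum went from 1.03% ± 0.0153 in VEH to 0.907% ± 0.0169 in CJ28, and it was 1.05% ± 0.0101 in MET. In bulk RNA, less of a transcript in each cell and fewer cells that make it cannot be told apart. The constitutive core genes summed to 70.7% of VEH and the regulators to 80.0%. By class, the alpha ring stood at 68.0% of VEH, the constitutive beta subunits at 73.0%, the base ATPases at 74.0%, the other base subunits at 77.0%, the lid at 83.0% and the activators at 75.4%. The base chaperones stood at 89.6%, the core chaperones at 98.9% and the immunosubunits at 145%. As shares of nuclear protein-coding TPM, the constitutive core stood at 81.5% of VEH, the regulators at 92.2% and the lid at 95.7%. On that scale the base chaperones stood at 103%, the core chaperones at 114% and the immunosubunits at 167%. The plot of summed levels by class shows the structural classes apart from VEH and MET in every sample, whereas the core chaperones overlapped between all 3 groups.

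**Figure D2:**
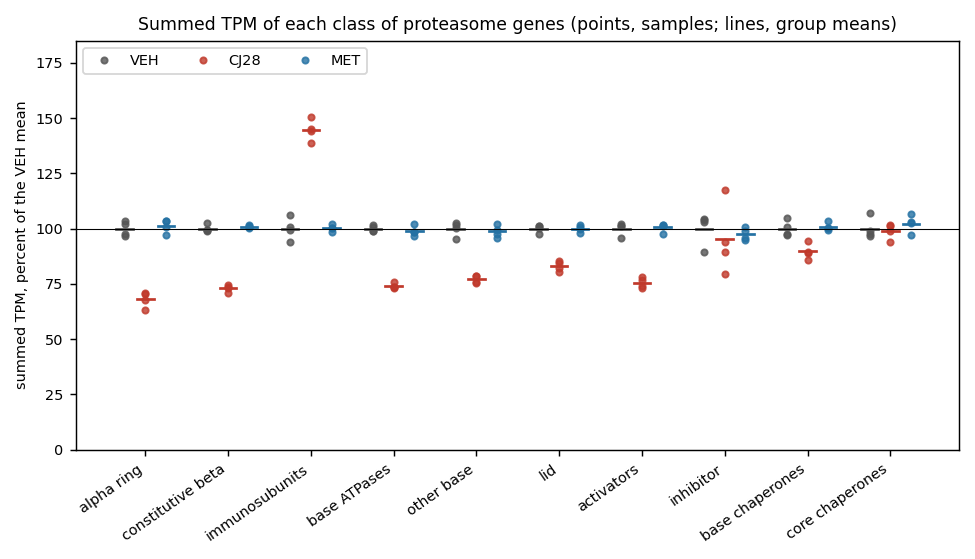
Summed TPM of each class of proteasome genes in each of the 12 samples, as a percent of the VEH mean of that class (points, samples; short lines, group means). CJ28 samples lie below the others in the alpha ring (68.0%) through the activators (75.4%), except for the immunosubunits, where they lie above at 145%.

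The alpha ring fell as a whole in CJ28. All 7 constitutive alpha subunits were lower, with a median log2 difference of -0.44, and all 7 stayed lower after median-of-ratios scaling. Of all tested genes 37.1% were lower, and 26.3% after that scaling. PSMA2, a subunit of this ring, was at 115.9, 130.6, 137.3 and 123.8 TPM in VEH, at 79.0, 71.4, 82.5 and 62.6 TPM in CJ28, and at 134.6, 134.0, 130.1 and 114.6 TPM in MET. The highest CJ28 sample was well under the lowest VEH sample, and 3 of the 4 MET samples lay within the range of VEH, with the other one just under it. The log2 difference between CJ28 and VEH was -0.78 (95% interval -0.97 to -0.60, limma, Benjamini-Hochberg adjusted p = 5.5e-06). PSMA2 shares 15314 bases of its span with the protein-coding gene AC010132.3 on the same strand, which was at 26.4 TPM in VEH and 27.1 TPM in CJ28. The summed TPM of both went from 153 ± 9.14 to 101 ± 9.60 (SD, n = 4), again without overlap, so the fall was still present with both added. PSMA4, another subunit of the ring, was at 128.1, 134.0, 133.2 and 127.5 TPM in VEH and at 81.9, 77.6, 82.2 and 72.7 TPM in CJ28. Its groups were likewise apart, with a log2 difference of -0.73 (-0.82 to -0.65, limma adjusted p = 9.0e-09). The smallest fall of the ring was that of PSMA7, at -0.34 (limma adjusted p = 3.1e-06).

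All 7 constitutive beta subunits fell too, with a median log2 difference of -0.60, and 6 stayed lower after the scaling. The shares of all tested genes that were lower were 37.1% and 26.3%. PSMB2, a structural beta subunit, was at 31.4, 32.8, 33.3 and 33.5 TPM in VEH and at 18.2, 18.9, 16.9 and 20.8 TPM in CJ28. All CJ28 samples were below all VEH samples, and the log2 difference was -0.81 (-0.93 to -0.69, limma adjusted p = 1.0e-07). PSMB1, also structural, was at 104.8, 101.3, 102.5 and 98.1 TPM in VEH and at 66.9, 61.7, 70.1 and 60.9 TPM in CJ28, a log2 difference of -0.65 (-0.74 to -0.56, limma adjusted p = 5.7e-08). PSMB4, a structural subunit and the most abundant member, was at 174.5, 169.0, 182.2 and 166.8 TPM in VEH and at 131.6, 128.5, 134.5 and 127.3 TPM in CJ28. Its difference was -0.41 (-0.48 to -0.34, limma adjusted p = 3.7e-07). The fall therefore reached abundant and scarcer subunits of the ring alike, each with separate groups.

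The 3 constitutive catalytic subunits fell by unequal amounts. PSMB5, which cuts after hydrophobic residues and is the main target of bortezomib, was at 50.4, 49.3, 51.0 and 51.3 TPM in VEH, at 33.7, 34.8, 32.2 and 32.2 TPM in CJ28, and at 49.5, 52.5, 48.7 and 51.3 TPM in MET. The log2 difference was -0.60 (-0.68 to -0.52, limma adjusted p = 2.2e-08), and the MET samples lay around those of VEH. PSMB7, which cuts after basic residues, was at 140.2, 145.1, 152.3 and 144.3 TPM in VEH and at 119.5, 117.7, 121.1 and 114.6 TPM in CJ28, with a difference of -0.30 (-0.37 to -0.23, limma adjusted p = 5.5e-06). PSMB6, which cuts after acidic residues, was at 58.4, 60.9, 57.3 and 62.8 TPM in VEH and at 51.3, 54.4, 50.8 and 52.6 TPM in CJ28. The groups of PSMB6 did not overlap either and differed by -0.19 (-0.27 to -0.12, limma adjusted p = 3.9e-04), but after median-of-ratios scaling the difference was not called, at -0.04, and on the protein-coding scale it was 0.01.

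The inducible counterparts did not fall. PSMB8, which takes the place of PSMB5 in the immunoproteasome, was at 11.02, 12.12, 11.73 and 11.30 TPM in VEH, at 17.8, 19.3, 20.1 and 18.1 TPM in CJ28, and at 11.7, 12.4, 12.5 and 11.8 TPM in MET. All 4 CJ28 samples stood above all other samples, and the log2 difference from VEH was 0.70 (0.59 to 0.80, limma adjusted p = 9.4e-08), with 0.85 after the scaling and 0.91 on the protein-coding scale. PSMB9, which takes the place of PSMB6, was at 3.04, 2.02, 4.10 and 3.32 TPM in VEH, at 4.02, 3.36, 3.74 and 4.45 TPM in CJ28, and at 3.11, 2.25, 2.78 and 2.90 TPM in MET. Its CJ28 and VEH samples overlapped and the difference of 0.35 was not called (-0.04 to 0.73, limma adjusted p = 0.12). It was called in 4 of 20 alternatives. These included the scaling, at 0.49, the protein-coding scale, at 0.56, and the fit without the VEH-3 sample, at 0.49 (limma adjusted p = 0.027). PSMB10, which takes the place of PSMB7, was at 4.12, 2.84, 3.33 and 3.34 TPM in VEH and at 3.26, 3.46, 3.36 and 3.68 TPM in CJ28, and the difference of 0.02 was not called (-0.19 to 0.24, limma adjusted p = 0.85).

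Set against its constitutive counterpart, PSMB8 more than doubled in CJ28, a ratio that no scaling of the library alters. PSMB8 was at 21.9 to 24.6 TPM for every 100 TPM of PSMB5 in VEH, at 52.8 to 62.3 in CJ28 and at 23.0 to 25.6 in MET, so that CJ28 stood apart from both other groups. PSMB9 was at 5.24 ± 1.57 for every 100 TPM of PSMB6 in VEH and at 7.46 ± 0.965 in CJ28 (SD, n = 4), with samples that overlapped. PSMB10 was at 2.35 ± 0.420 for every 100 TPM of PSMB7 in VEH and at 2.91 ± 0.218 in CJ28, also overlapping. The 3 inducible subunits together came to 7.06 ± 0.329 for every 100 TPM of the constitutive ones in VEH, 12.8 ± 0.478 in CJ28 and 6.95 ± 0.201 in MET. PSMB8 and PSMB9 lie on opposite strands of chromosome 6 and share 544 bases of their spans, and the strand setting of the quantification is not given in the sources used here. The summed TPM of both went from 14.7 ± 0.817 in VEH to 22.7 ± 0.830 in CJ28.

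**Figure D3:**
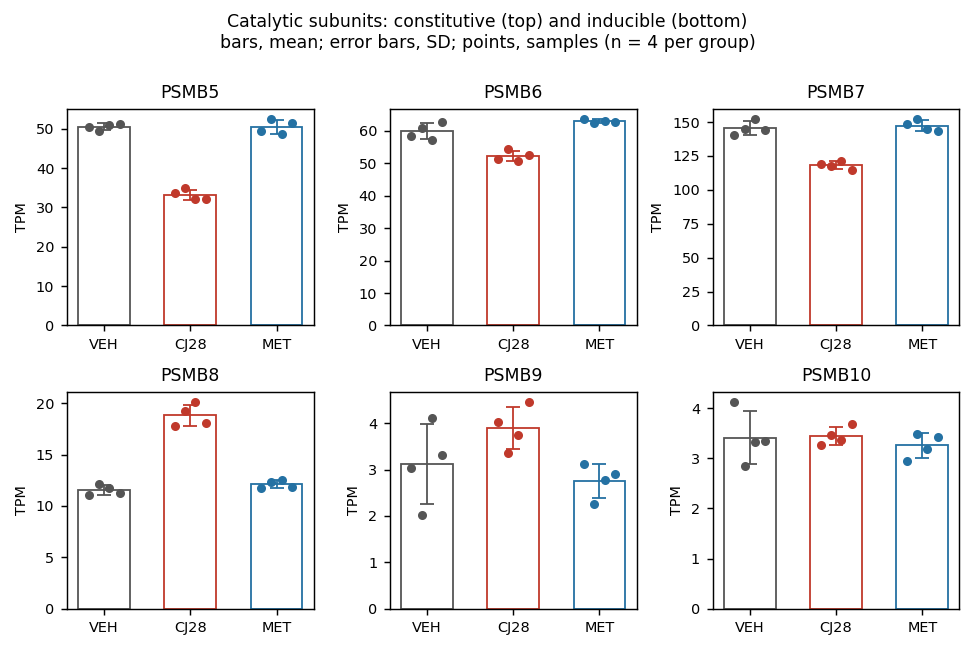
TPM of the 3 constitutive catalytic subunits (top) and of the inducible subunits that replace them (bottom) in VEH, CJ28 and MET; bars give means, error bars the SD and points the 4 samples of each group. PSMB5 fell from about 50.5 to 33.2 TPM in CJ28 while PSMB8 rose from 11.5 to 18.8 TPM, and the CJ28 and VEH samples of PSMB9 and PSMB10 overlapped.

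In the 19S base, 5 of the 6 ATPases fell, where 37.1% of all tested genes did, and PSMC4 did not. PSMC2, PSMC6, PSMC3, PSMC1 and PSMC5 differed by -0.63, -0.58, -0.54, -0.51 and -0.40. PSMC4, another ATPase of the same ring, had 62.1 TPM in VEH and 61.5 TPM in CJ28 and a difference of -0.01 (-0.08 to 0.05, limma adjusted p = 0.71), and after the scaling it was called higher, at 0.14. PSMC5 overlaps FTSJ3 on the opposite strand by 2861 bases and was not called after the scaling.

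The scaffold subunits of the base also fell. PSMD1, the large base subunit that docks ubiquitin receptors, had the largest fall of all members. It was at 22.4, 23.3, 22.7 and 22.9 TPM in VEH, at 13.5, 12.4, 12.4 and 10.7 TPM in CJ28, and at 22.8, 23.3, 22.9 and 24.5 TPM in MET. Its CJ28 samples were far under the rest, with a log2 difference from VEH of -0.90 (-1.03 to -0.77, limma adjusted p = 5.5e-08). PSMD2, the other scaffold, differed by -0.49 (limma adjusted p = 6.4e-06). PSMD4, a ubiquitin receptor between base and lid and the most abundant regulator, was at 104.9, 109.0, 105.4 and 107.1 TPM in VEH and at 91.3, 95.8, 90.2 and 87.8 TPM in CJ28. The groups did not overlap and differed by -0.22 (-0.31 to -0.14, limma adjusted p = 3.7e-04), a difference that was not called on the other scales.

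The lid was uneven. Of its 8 members, 7 fell, with a median over the lid of -0.31, against 37.1% of all tested genes. After the scaling 4 stayed lower and 1 was higher, against 26.3% and 29.3%. PSMD6, PSMD3, PSMD12 and PSMD11, structural lid subunits, differed by -0.59, -0.51, -0.48 and -0.39. PSMD14, the deubiquitinase of the lid, and PSMD7, the inactive partner it pairs with, differed by -0.23 and -0.18, and PSMD13 by -0.20. None of these 3 was called on the other scales. PSMD8, a further lid subunit, had 88.8 TPM in VEH and 93.2 TPM in CJ28. The difference of 0.07 was not called (0.00145 to 0.14, limma adjusted p = 0.076). PSMD8 was called higher in 5 of 20 alternatives, among them the scaling, at 0.22, and the protein-coding scale, at 0.28.

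The alternative activators fell, whereas the inhibitor was not called. PSME1 and PSME2, the subunits of the interferon-inducible PA28 ring, differed by -0.37 and -0.48 between CJ28 and VEH (limma adjusted p = 7.9e-07 and 6.7e-08). They are partners of the immunoproteasome, and their direction was opposite to that of PSMB8. PSME4, the PA200 activator, differed by -0.45 and PSME3, the nuclear PA28 gamma, by -0.24 (limma adjusted p = 0.022), and PSME3 was not called without CJ28-2, CJ28-4, VEH-3 or VEH-4, with no filter on low genes, or on the other scales. PSMF1, the inhibitor PI31, spanned 31.6 to 46.8 TPM in CJ28 and 35.5 to 41.4 TPM in VEH, with a difference of -0.08 (-0.29 to 0.12, limma adjusted p = 0.47). It was called lower without CJ28-4, at -0.19 (limma adjusted p = 0.027).

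The dedicated assembly chaperones took no common direction. PSMD5, which helps to assemble the base and is released from the finished cap, was at 10.2, 10.1, 11.3 and 12.6 TPM in VEH, at 14.7, 14.2, 12.4 and 15.2 TPM in CJ28, and at 11.9, 10.7, 11.5 and 12.8 TPM in MET. The lowest CJ28 sample lay under the highest VEH sample, and the difference was 0.35 (0.17 to 0.54, limma adjusted p = 0.0036). PSMD5 overlaps CUTALP on the opposite strand by 18124 bases, and CUTALP rose from 20.6 ± 0.952 to 27.2 ± 1.44 TPM (SD, n = 4), a log2 difference of 0.40. The libraries were made with a stranded kit, but unless the quantification used strand, reads of these neighbours cannot be told apart. PSMD10, the base chaperone also called gankyrin, fell by 0.53 on the log2 scale, and PSMD9, the remaining one, was not called at -0.16 (limma adjusted p = 0.054). PSMD9 was called lower without CJ28-4 or VEH-2, at -0.21 in each case, and over genes with a mean of at least 1 TPM.

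Of the chaperones of the core, which act as the pairs PSMG1 with PSMG2 and PSMG3 with PSMG4, 1 rose and 1 fell. Over all tested genes 19.9% rose and 37.1% fell. PSMG3 was at 15.4, 17.7, 15.9 and 16.4 TPM in VEH and at 17.9, 18.7, 18.9 and 17.2 TPM in CJ28. The groups overlapped, and the difference of 0.15 (0.04 to 0.26, limma adjusted p = 0.019) was lost without CJ28-2, CJ28-3 or VEH-1. PSMG2 differed by -0.18 (limma adjusted p = 0.0026) as deposited and by 0.02 on the protein-coding scale. PSMG4, the least abundant regulator, was at 9.14, 9.27, 7.78 and 9.28 TPM in VEH and at 8.82, 9.17, 9.81 and 7.48 TPM in CJ28, with a difference of -0.01 that was not called, and PSMG1 also stood at -0.01. On the protein-coding scale PSMG1, PSMG3 and PSMG4 were called higher, at 0.20, 0.36 and 0.19, where 39.2% of all genes on that scale were called higher.

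**Figure D4:**
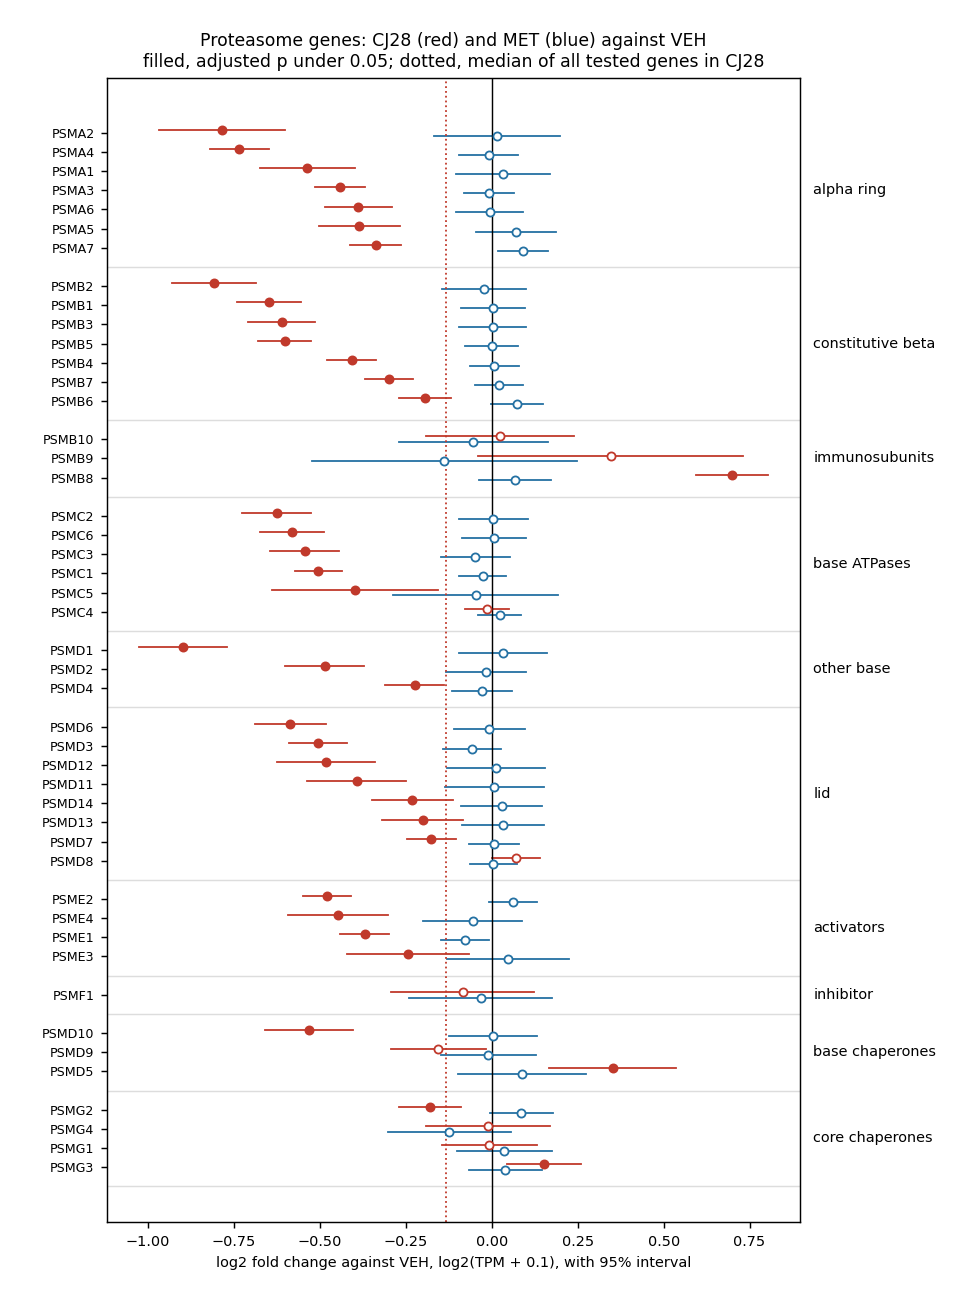
Log2 fold change against VEH with its 95% interval for each tested member, by class, for CJ28 (red) and MET (blue); filled points passed an adjusted p under 0.05 and the dotted line is the median of all tested genes in CJ28 (-0.13). Of the red points 35 are filled below 0 and 3 above it, and no blue point is filled.

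No change of a proteasome gene was detected in MET. Against VEH, 0 of 46 members were called by limma in either direction, where 0.00595% of all tested genes, a single gene, were called. The smallest adjusted p among the members was 0.93. At an unadjusted p under 0.05 there were 2 members, against 5.20% of all tested genes. They were PSMA7, an alpha subunit, at 0.09 (0.02 to 0.16), and PSME1, at -0.08 (-0.15 to -0.01). PSMA7 was the single member whose MET samples all stood above all VEH samples, at 65.4 to 69.5 TPM against 63.0 to 64.3 TPM, a pattern shown by 0.779% of all tested genes. Log2 differences ran from -0.14 to 0.09 with a median of 0.00476, and the outermost bounds of their 95% intervals were -0.52, for PSMB9, and 0.27, for PSMD5. For PSMB8 the interval was -0.04 to 0.17, and for PSMD1 -0.09 to 0.16.

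The compounds were given at the same dose and time, and the direct test between them separated most members. CJ28 was lower than MET for 35 members and higher for 3, against 34.6% and 20.9% of all tested genes. The 35 were the same genes that were lower than VEH. The CJ28 samples serve in both comparisons, so these are not independent. After median-of-ratios scaling 29 were lower and 6 higher than in MET, against 26.1% and 28.7% of all genes, and on the protein-coding scale 27 and 9, against 25.3% and 40.3%. The higher ones were PSMB8, at 0.63 (0.53 to 0.74, limma adjusted p = 2.5e-07), PSMB9, at 0.48 (0.10 to 0.87, adjusted p = 0.035), and PSMD5, at 0.26 (0.08 to 0.45, adjusted p = 0.019). Without CJ28-1 or MET-2, PSMB8 was the 1 member called higher, and without CJ28-4 PSMB8 stayed called while PSMB9 and PSMD5 did not. PSMB9 also lost its call without CJ28-3 or MET-3. PSMG3 was not called, at 0.11 (0.01 to 0.22, limma adjusted p = 0.070). PSMD1 differed most in the other direction, by -0.93 (-1.06 to -0.80, limma adjusted p = 4.1e-08). PSMC4 differed by -0.04, with an interval of -0.10 to 0.03.

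Partners of the proteasome without a PSM symbol were divided. Of 30 such genes, all tested, 15 fell and 4 rose in CJ28 against VEH, with a median of -0.11, and 0 were called in MET. Over all tested genes, 37.1% were lower and 19.9% higher in CJ28. After median-of-ratios scaling 11 were lower and 13 higher, where 26.3% and 29.3% of all genes were, so the balance of this list depended on the scale. SEM1, the smallest lid subunit, was at 147.4, 139.2, 137.5 and 141.8 TPM in VEH and at 72.2, 65.7, 67.4 and 73.9 TPM in CJ28. Its groups were far apart and its difference of -1.02 (SE 0.042, limma adjusted p = 8.1e-10) was beyond that of any PSM member. ADRM1, the ubiquitin receptor docked on PSMD1, differed by -0.38, POMP, the maturation factor of the core, by -0.46, and USP14, a deubiquitinase of the cap, by -0.50. PAAF1, which binds base ATPases during assembly, rose by 0.38. Among 6 ubiquitin and E1 genes 4 fell, UBB furthest at -0.57, but 2 were lower and 1 higher after the scaling. On the protein-coding scale 1 of them was lower and 2 were higher, where 26.3% and 39.2% of all genes were. Of 5 shuttle factors, which carry tagged proteins to the cap, 1 rose and 1 fell, UBQLN2 by 0.77 on the log2 scale. After the scaling 4 of them were higher and 1 lower.

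The machinery that delivers and activates NFE2L1 split as well, with 4 of 8 genes lower and 2 higher, against 37.1% and 19.9% of all tested genes. After the scaling 3 were lower and 3 higher, against 26.3% and 29.3% of all tested genes. NFE2L1 itself was at 49.1, 42.8, 48.1 and 48.5 TPM in VEH and at 48.9, 49.4, 50.1 and 55.8 TPM in CJ28. The groups overlapped, and the difference of 0.11 was not called (limma adjusted p = 0.22), though it was after the scaling, at 0.27. VCP, the ATPase that extracts NFE2L1 from the endoplasmic reticulum, was at 161.5, 166.3, 169.4 and 174.5 TPM in VEH and at 94.6, 95.3, 94.2 and 93.0 TPM in CJ28. All CJ28 samples were under all VEH samples, with a difference of -0.83 (SE 0.028, limma adjusted p = 1.1e-10). The VCP cofactors NPLOC4 and UFD1 fell by 0.64 and 0.59 on the log2 scale and the protease DDI2 by 0.34, though DDI2 was not called on the other scales. SEL1L, an adaptor of the endoplasmic reticulum ubiquitin ligase SYVN1, rose by 0.83 and NGLY1, which removes sugars from NFE2L1, by 0.54, while SYVN1 was not called at 0.01.

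Genes of antigen processing, which the immunoproteasome serves, included 5 that rose and 2 that fell among 11 in CJ28, against 19.9% and 37.1% of all tested genes. Among those that rose were IRF1, an interferon-response transcription factor, by 0.65, HLA-B by 0.49, TAP1, a peptide transporter, by 0.45 and HLA-C by 0.38. TAP1 was at 3.54, 3.57, 3.40 and 3.41 TPM in VEH and at 4.71, 5.10, 4.55 and 4.85 TPM in CJ28, with no sample in common between the ranges. The span of TAP1 overlaps that of PSMB9 by 8770 bases. TAPBP and B2M differed by -0.28 and -0.19, and neither was called after the scaling, when 6 of the list were higher and 0 lower, against 29.3% and 26.3% of all genes. NLRC5, a regulator of this group, was not called, at 0.01. In MET 0 of the 11 were called.

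**Figure D5:**
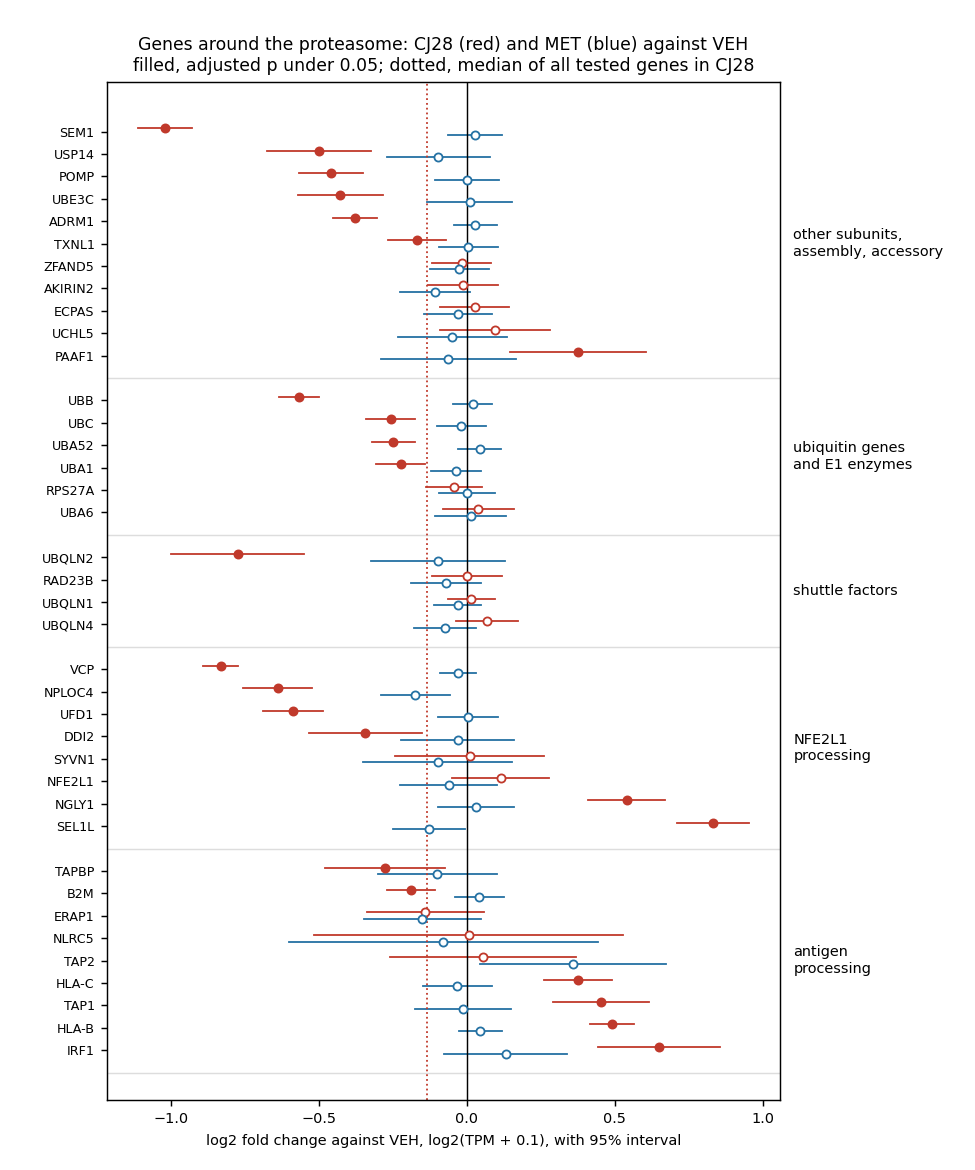
Log2 fold change against VEH with its 95% interval for partners of the proteasome and genes of antigen processing, CJ28 in red and MET in blue; filled points passed an adjusted p under 0.05. SEM1 (-1.02) and VCP (-0.83) lie furthest to the left and SEL1L (0.83) and IRF1 (0.65) furthest to the right, and no blue point is filled.

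Spans or sequence shared with other genes touched several members. Another annotated gene overlapped the span of 29 members. For 22 such a gene lay on the opposite strand and reached 0.5 TPM, and for 10 one on the same strand did. PSMA3, an alpha subunit, overlaps ARMH4 by 27170 bases, and ARMH4 fell from 30.6 ± 2.13 to 12.5 ± 1.10 TPM (SD, n = 4), further than PSMA3, which differed by -0.44. Its antisense gene PSMA3-AS1 fell from 21.0 ± 1.14 to 13.8 ± 1.36 TPM. Of 31 pseudogene entries, those of PSMD10 and PSMC1 took the largest shares of the summed TPM, up to 11.3% and 7.85%. With the pseudogenes added, the log2 ratio of means went from -0.54 to -0.58 for PSMD10 and from -0.51 to -0.49 for PSMC1. The falls of PSMD10 and PSMC1 were thus of about the same size with the pseudogenes added.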

How the data were processed

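RNA-seq was done on 4 biological replicates of each of VEH, CJ28 and MET. The authors trimmed reads with cutadapt (version 2.8), aligned them to GRCh38 with STAR (version 2.7.10b) and quantified genes with RSEM (version 1.3.3), per the submitters' processing notes, and deposited 1 table of TPM values, given to 2 decimals. Since TPM values hold no read numbers, neither a count model nor a counting interval could be used. Libraries were made with a stranded total RNA kit after ribosomal RNA depletion. RSEM splits reads among similar genes, and whether it was run with strand is not given in the sources used here.

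Groups came from the sample labels. There were 0 further columns of sample values. The main test was limma 3.58.1 in R 4.3.3 (eBayes with a trend) on log2(TPM + 0.1), with the 12 samples in 1 model and no covariate, over the 16815 genes with at least 0.5 TPM in at least 4 samples. Tests were two-sided, with Benjamini-Hochberg adjustment over all genes tested and a threshold of 0.05. The fit was tested on simulated data. CJ28 and MET were each compared with the same VEH samples. Sums, ratios and shares of TPM were computed per sample and not tested. Fold changes on this scale understate those of low genes.

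Values in every VEH and CJ28 sample are given for the catalytic subunits and the most and least abundant member of core and regulators. The same holds for up to 5 members with the largest called change in each direction for CJ28 against VEH, and for SEM1, NFE2L1, VCP and TAP1. MET samples are given for some of these. Members called in MET would have been added, but no member was called. The tissue-restricted members are given by their range. The partner, antigen and marker lists and the members were chosen with earlier results of these data known. A few genes of these lists are counted but not reported here by name. The 4 motifs were chosen in the same way. Alternatives were the pseudocount, the filter, 2 other scales, a fit of the compared groups alone, the replicate number as a block and leaving out each sample. Promoter windows came from RefSeq (GRCh38.p14).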

Additional observations from a re-analysis of the deposited data

Results flagged for a closer look

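In 6 of 138 groups of 4 samples, 1 sample lay far from the other 3 relative to the range of the group (Dixon's test at its 95% critical value). Chance gives about 5 such groups in 100. The 6 were in 6 different libraries, VEH-2, VEH-3, VEH-4, CJ28-2, MET-2 and MET-4. PSMC2, a base ATPase, was at 36.47 TPM in VEH-4 and at 39.48 to 39.95 TPM in the other VEH samples. PSMC3, also a base ATPase, was at 77.14 TPM in MET-2 and at 67.15 to 67.74 TPM in the other MET samples. PSMD8, a lid subunit, was at 86.21 TPM in MET-4 and at 89.87 to 90.18 TPM in the others. PSMF1, the inhibitor, was at 35.51 TPM in VEH-2 and at 40.84 to 41.42 TPM in the others. PSMG1, a core chaperone, was at 23.18 TPM in CJ28-2 and at 21.13 to 21.24 TPM in the others. PSMG4, another core chaperone, was at 7.78 TPM in VEH-3 and at 9.14 to 9.28 TPM in the others. Of these, only PSMC2 and PSMC3 were called lower in CJ28, and neither lost its call without the library named.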

How the results depend on the processing

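Counts of lower members stayed at 34 to 36 for CJ28 against VEH and at 35 to 36 for CJ28 against MET when each sample was left out in turn, and 0 members and 0 of the 30 partner genes were called for MET under any alternative run. Members higher in CJ28 than VEH, 3 as reported, numbered 6 after median-of-ratios scaling, 8 on the protein-coding scale, and 2 to 4 with a sample left out. Members higher in CJ28 than MET, also 3, numbered 6 and 9 on those scales and 1 to 4 with a sample left out, 1 without CJ28-1 or MET-2. The partner list kept a count of 19 with any sample left out. For members called either as deposited or on the other scale, the sign turned on the protein-coding scale for PSMB6 (0.0104), PSMD7 (0.0291), PSMD13 (0.00293), PSMG2 (0.0242), PSMG1 (0.20), PSMG4 (0.19) and PSMC4 (0.19), and after median-of-ratios scaling for PSMC4 (0.14). It also turned for members called on neither scale, PSMD9 and PSMF1 on the protein-coding scale and PSMF1, PSMG1 and PSMG4 after median-of-ratios scaling. Of 920 values of single members for CJ28 against VEH over 20 alternatives, 863 kept direction and side of the threshold, 14 became called, 20 lost the call and 23 turned sign, 15 of them uncalled in both. Changes of pseudocount and fits of only the compared groups changed no member's call.

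Replicate numbers run from 1 to 4 in each group, but same-numbered samples did not deviate together (mean correlations of 0.0236, -0.0237 and -0.0478 in the 3 comparisons), and samples correlated best with their own number in 2, 0 and 0 of 4 cases. With replicate number as a block, 5 members were higher and 36 lower for CJ28 against VEH, 3 and 35 for CJ28 against MET and 0 for MET against VEH, and the partner count stayed at 19. The TPM table holds no read numbers and the read totals given by the study were not used here, so how far depth limits PSMB9 and PSMB10, near 3 TPM, was not tested.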
